A study of Mus musculus with 12 samples.

Results

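The genes described here are 10 transcripts that macrophages raise when interleukin 4 (IL-4) drives them into alternative activation: Arg1, Tgm2, Chil3, Retnla, Klf4, Il4ra, Pparg, Irf4, Socs2 and Pdcd1lg2. They were taken by name from a table of 35050 rows of gene counts, and each of the 10 had 1 row and enough counts to be tested. RNA sequencing had been done on 12 libraries of mouse peritoneal macrophages in 4 groups of 3. The groups were KO with R300, KO blank, WT with R300 and WT blank. KO stands for the genotype given as Mac-Ern1KO, and WT for Ern1fl/fl, whose Ern1 alleles carry loxP sites and which therefore is a floxed control and not an unmodified strain. Every group came from male mice aged 8 weeks, whose cells were collected 3 days after 3% Brewer thioglycolate had been injected into the peritoneum. Macrophages of the R300 groups had been co-cultured for 2 h with opsonized platelets, R300 being an antibody against CD42 on platelets. For blank cells the labels give only Con as treatment and do not say whether uncoated platelets or none were added, so coating, platelets and time in culture cannot be told apart. The Cre driver behind the KO label is not named. The 3 libraries of a group are called biological replicates, without saying whether each came from a separate mouse, so p-values measure the spread between these libraries.

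IL-4 and IL-13 act on macrophages through receptors that share the IL-4 receptor alpha chain, whose gene is Il4ra. The receptor activates Janus kinases, which phosphorylate the transcription factor STAT6. STAT6, together with factors such as PPARγ, KLF4 and IRF4, raises a program of secreted proteins and enzymes. In mice its best-known products are arginase 1 (Arg1), the resistin-like protein RELMα (Retnla) and the chitinase-like lectin Ym1 (Chil3). Macrophages of the peritoneal cavity show this program in worm infection and wound repair. Some of its genes also respond to signals other than IL-4, for example cyclic AMP and hypoxia in the case of Arg1.

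Promoter sequences from RefSeq (GRCm38.p6) show which of the genes carry a STAT6-type motif next to their annotated start. An entry was found for 7 of the 10 genes; Arg1, Tgm2 and Socs2 had none. The motifs searched on both strands were the STAT6 form TTCNNNNGAA, the general STAT form TTCNNNGAA, the PPAR and RXR repeat AGGTCANAGGTCA, the ETS and IRF composite GGAANNGAAA and the TATA box TATAAA. Of 32851 promoters of 300 bases, 6.95% held TTCNNNNGAA, 8.3% TTCNNNGAA, 0.0396% AGGTCANAGGTCA, 2.72% GGAANNGAAA and 13.6% TATAAA. A gene can have more than 1 promoter entry, and Pparg had 3. Counted by gene, 8.01% of 27025 genes held TTCNNNNGAA and 9.55% TTCNNNGAA. The forms searched did not overlap one another in the windows of these 7 genes. Retnla and Pdcd1lg2 each held 1 match to the STAT6 form, at 145 and 82 bases before the start. Chil3 held the general form as TTCTTAGAA, and the windows of Il4ra, Irf4, Klf4 and Pparg held neither form. The 250 bases before the start are printed below for a pair with the STAT6 form and a pair without it. Capitals mark motif matches (in Retnla also the TATA box), and the sequences of Il4ra and Klf4 have none. They run 5′ to 3′ on the gene's strand and lie at chr16:48842359-48842608 (plus strand, Retnla), chr19:29410669-29410918 (plus, Pdcd1lg2), chr7:125552021-125552270 (plus, Il4ra) and chr4:55532476-55532725 (minus, Klf4). A match in these letters is a description of the window and not evidence of binding.
Retnla: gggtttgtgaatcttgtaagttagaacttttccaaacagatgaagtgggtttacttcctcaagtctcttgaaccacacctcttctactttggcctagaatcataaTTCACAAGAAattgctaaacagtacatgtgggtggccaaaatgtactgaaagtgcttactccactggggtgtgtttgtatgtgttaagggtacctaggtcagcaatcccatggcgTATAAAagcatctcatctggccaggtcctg
Pdcd1lg2: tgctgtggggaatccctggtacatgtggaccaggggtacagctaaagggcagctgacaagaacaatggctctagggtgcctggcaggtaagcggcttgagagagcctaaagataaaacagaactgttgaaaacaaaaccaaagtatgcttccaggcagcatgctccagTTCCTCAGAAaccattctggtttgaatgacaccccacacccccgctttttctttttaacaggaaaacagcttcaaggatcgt
Il4ra: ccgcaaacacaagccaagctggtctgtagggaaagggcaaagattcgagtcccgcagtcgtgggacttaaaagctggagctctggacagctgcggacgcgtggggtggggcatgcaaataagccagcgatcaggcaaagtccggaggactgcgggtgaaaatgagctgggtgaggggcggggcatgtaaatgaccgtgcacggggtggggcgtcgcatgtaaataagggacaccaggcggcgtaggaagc
Klf4: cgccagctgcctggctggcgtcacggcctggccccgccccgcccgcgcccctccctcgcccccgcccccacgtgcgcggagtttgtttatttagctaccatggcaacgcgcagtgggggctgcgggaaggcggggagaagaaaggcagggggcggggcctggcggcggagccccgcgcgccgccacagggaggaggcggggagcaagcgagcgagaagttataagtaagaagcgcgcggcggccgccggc

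The composition of the libraries has to be given before the values. Totals ran from 21765586 to 44273655 counts per library, and the 10 genes held between 27 counts (Pdcd1lg2, WT blank 1) and 64113 counts (Arg1, KO R300 1) in a library. Values are counts scaled to library size (CPM) after TMM normalisation, and 16546 genes were tested. Xist, a transcript of female cells, was at 143 to 590 CPM in 8 libraries, whereas the labels give only male mice. The other 4, which are KO R300 3, KO blank 3, WT R300 2 and WT blank 3, held 0 to 2 counts. In addition, KO R300 1 and 2 were nearly alike (median chi-square over genes 1.53), and so were WT R300 1 and 3 at 1.37, against 6.15 to 10.3 for the other pairs within groups. The R300 groups may therefore hold fewer than 3 independent samples, and their SD and p may be too small. Ern1 itself was at 235, 225 and 174 CPM in KO R300 1 to 3 against 204, 138 and 205 CPM in WT R300. Its level in KO blank was 150, 155 and 116 CPM, against 113, 117 and 94.1 CPM in WT blank, so the KO groups had no lower mean. A count over all exons cannot tell a deleted exon from an intact one, so it checks neither the deletion nor the labels. Each of the 8 macrophage markers was detected, with a summed level of 11071 to 13198 CPM in KO R300, 9659 to 10222 CPM in KO blank, 17055 to 17892 CPM in WT R300 and 15608 to 17190 CPM in WT blank. Lyz2 carried the difference between genotypes: the other 7 markers summed to 4183 to 5944 CPM in KO R300, 2905 to 3602 CPM in KO blank, 4326 to 5228 CPM in WT R300 and 2975 to 3668 CPM in WT blank. Markers of mesothelial cells and fibroblasts summed to 391 to 916 CPM in KO R300 and 384 to 513 CPM in KO blank. In WT they summed to 212 to 1525 CPM with R300 and 165 to 722 CPM in blank cells. All 13 tested had a positive R300 change in KO, in WT and in the average, none at an adjusted p under 0.05. The part of these cells in the levels of the 10 genes was not tested.

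Per length of exon, Arg1 and Tgm2 were the most abundant of the 10. Their levels averaged 352 ± 330 and 192 ± 90.8 CPM per kb over the 12 libraries (SD, n = 12). Next came Chil3 (80.2 ± 13.1), Retnla (66.8 ± 42.7), Klf4 (38.7 ± 16.0) and Il4ra (35.2 ± 15.3 CPM per kb). Pparg followed at 11.4 ± 5.04, and Irf4 (2.73 ± 1.15), Socs2 (1.21 ± 0.829) and Pdcd1lg2 (1.00 ± 0.418 CPM per kb) were lowest. Neighbours in this order whose ranges over libraries overlapped were Arg1 and Tgm2, Tgm2 and Chil3, Chil3 and Retnla, Retnla and Klf4, Klf4 and Il4ra, Il4ra and Pparg, Irf4 and Socs2, and Socs2 and Pdcd1lg2. Ranges did not meet between Pparg, at 5.24 to 19.0 CPM per kb, and Irf4, at 1.26 to 4.74. The order of mean levels is thus graded, with a gap below Pparg. The genes also differed in spread: the highest library held 18 times the lowest for Arg1, 8.38 times for Socs2 and 6.02 times for Retnla, but 1.60 times for Chil3.

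**Figure D1:**
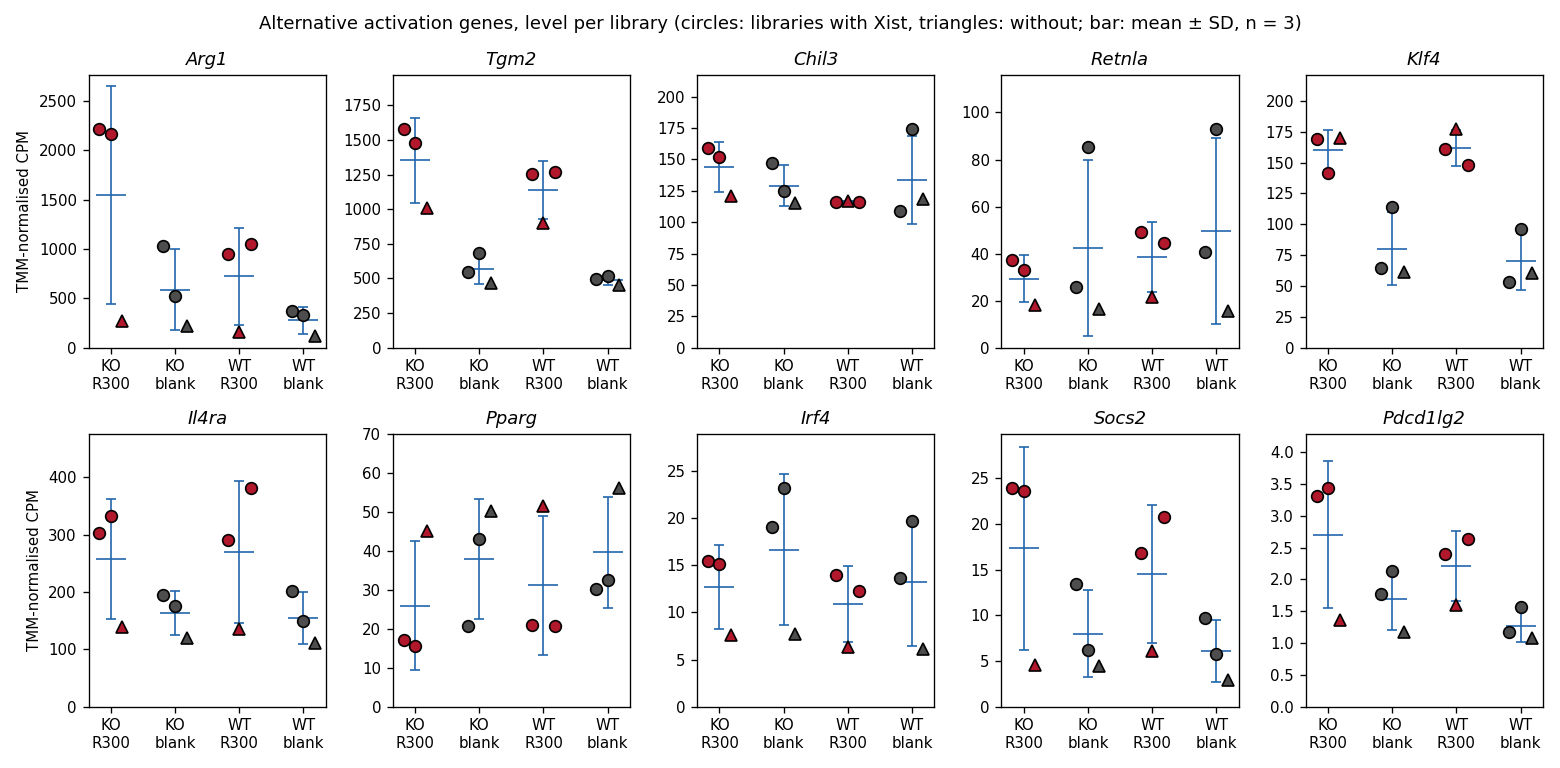
Level of each gene (TMM-normalised CPM, vertical axes from 0) in the 12 libraries by group, with the mean ± SD of 3 libraries; circles are libraries with Xist and triangles those without. Tgm2 and Klf4 show every R300 library above every blank library of the same genotype, whereas Arg1 ran from 161 to 2211 CPM in R300 libraries.

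Tgm2 and Klf4 were the genes of the program that rose with R300. Tgm2 encodes transglutaminase 2, which crosslinks proteins and is an alternative activation marker in both mouse and human macrophages. It held 1576, 1475 and 1005 CPM in KO R300 1 to 3, against 547, 681 and 467 CPM in KO blank. WT macrophages held 1252, 897 and 1265 CPM with R300, against 495, 516 and 452 CPM in blank cells. No R300 library overlapped a blank one, and the libraries without Xist were the lowest in each group. Tgm2 rose 2.39-fold in KO (log2 1.26, SE 0.20, edgeR adjusted p = 0.0173) and 2.33-fold in WT (log2 1.22, SE 0.20, adjusted p = 0.0250). Averaged over both genotypes, the rise was 2.36-fold (log2 1.24, SE 0.14, adjusted p = 0.000868). Exact two-sided permutation of treatment within genotype gave p = 0.005 (unadjusted, n = 12), the smallest value that this design allows. Tgm2 lies on chromosome 2 at 158116402 to 158146436 (GRCm38, minus strand), and 21.8% of its exonic bases overlap Rprd1b or Gm20412 on the other strand. Rprd1b itself was at 24.1 to 32.0 CPM, far below Tgm2, and its R300 change averaged log2 0.17 (adjusted p = 0.284).

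Within libraries of like Xist state, the Tgm2 rise was also present. The difference of mean log2(CPM + 0.5) was 1.32 in KO and 1.31 in WT among libraries with Xist, and 1.11 and 0.99 among those without. The calls in the single genotypes depended on which libraries were used. Both were lost when each near-alike R300 pair was summed to 1 library (adjusted p = 0.170 in KO and 0.220 in WT) and when only the groups compared were fitted (0.127 and 0.0533). The KO call was lost without KO blank 1 or 3 or KO R300 1 or 2 (adjusted p 0.0779 to 0.103). The WT call was lost without any WT blank library, WT R300 1 or 3, or KO R300 2 (0.0518 to 0.140). The call averaged over both genotypes held without any single library.

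Klf4 encodes a zinc finger transcription factor that acts with STAT6 in alternative activation and also marks monocyte differentiation. It held 169, 141 and 170 CPM in KO R300, against 64.7, 114 and 61.4 CPM in KO blank. WT macrophages held 161, 177 and 148 CPM with R300, against 53.1, 96.4 and 60.5 CPM in blank cells. The groups did not overlap in either genotype, and the blank libraries numbered 2 were nearest to the R300 ones. Averaged over both genotypes, Klf4 rose 2.15-fold (log2 1.10, SE 0.18, adjusted p = 0.00755; exact permutation p = 0.005, unadjusted). The single genotypes did not pass, at 2.00-fold in KO (log2 1.00, SE 0.26, adjusted p = 0.144) and 2.31-fold in WT (log2 1.21, SE 0.26, adjusted p = 0.0882). Unlike Tgm2, its difference was larger among libraries without Xist, at 1.46 in KO and 1.54 in WT, than among those with Xist, at 0.84 and 1.11. The averaged call was lost in the 8 libraries with Xist (log2 0.92, adjusted p = 0.0738). It was also lost when each near-alike R300 pair was summed to 1 library (log2 1.13, adjusted p = 0.0572). Klf4 lies on chromosome 4 at 55527143 to 55532466 (minus strand).

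**Figure D2:**
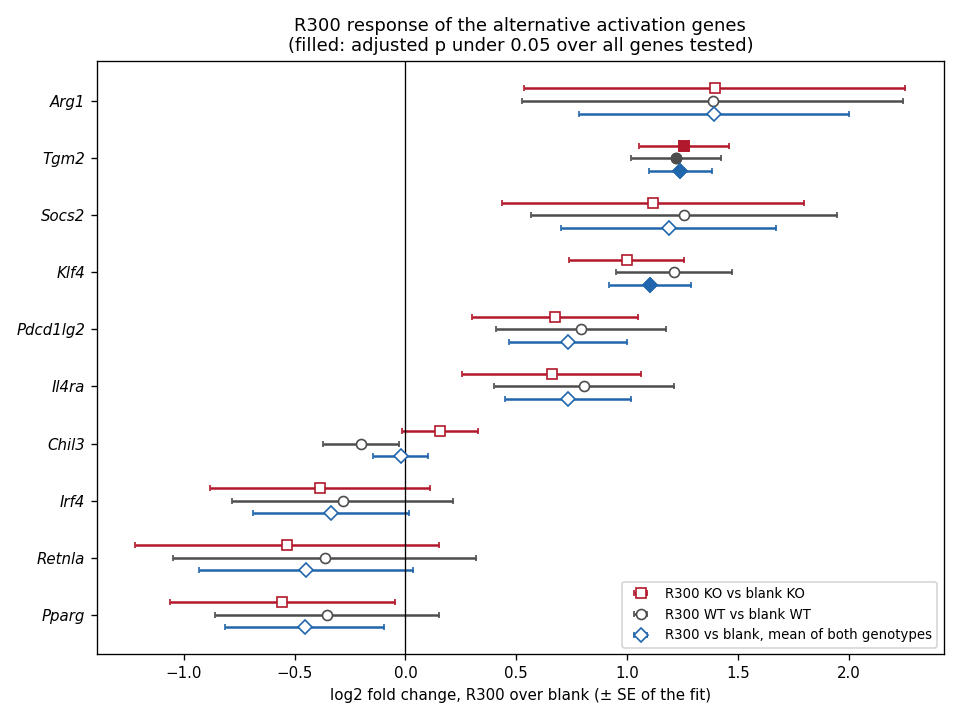
log2 fold change of R300 over blank with the SE of the edgeR fit, for KO, WT and the mean of both genotypes; filled symbols passed an adjusted p under 0.05. Tgm2 is filled in all 3 comparisons and Klf4 in the average, and Arg1 and Socs2, with SE 0.61 and 0.48 in the average, have the widest bars among the genes right of 0.

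Counted over the program, 1 of 10 genes rose in KO, where 0.695% of all tested genes did, and 1 of 10 in WT, where 0.55% did. In the average of both genotypes 2 of 10 rose, against 2.43% of all tested genes, and none fell in these comparisons, where 0.139%, 0.0725% and 1.21% of tested genes did. At an unadjusted p under 0.05 the averaged fit held 6 of the 10, and 15.6% of all tested genes. The median log2 change of the 10 was 0.67 in KO, 0.80 in WT and 0.73 in the average, against a median of 0.00 over all tested genes in each. R300 libraries lay above all blank ones for 2 of 10 genes in KO, against 6.64% of all genes, and for 3 of 10 in WT, against 6.74%. The comparisons in KO and WT share no libraries, but both enter the average. The 10 genes were chosen with earlier results of these data known. These shares, and those given below, therefore describe the genes and are no test of the program.

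Arg1, Il4ra, Socs2 and Pdcd1lg2 had higher mean levels with R300 in both genotypes without passing, and varied widely within groups. Arg1, which encodes the enzyme that splits arginine into ornithine and urea, held 2211, 2160 and 275 CPM in KO R300 1 to 3, against 1030, 521 and 215 CPM in KO blank. In WT it held 950, 161 and 1053 CPM with R300, against 376, 329 and 123 CPM in blank cells. The lowest library in each group was the one without Xist, and those R300 libraries lay below the blank libraries with Xist. Arg1 lies on chromosome 10 at 24915221 to 24927484 (minus strand). The change averaged 2.62-fold (log2 1.39, SE 0.61, adjusted p = 0.299; exact permutation p = 0.145, unadjusted). Among libraries with Xist the log2 difference was 1.58 in KO and 1.51 in WT, and among those without it was 0.35 and 0.39. The difference of responses between libraries without and with Xist was tested in a fit with a term for it, added after seeing the data. It was log2 -1.13 (SE 0.32, edgeR adjusted p = 0.519, unadjusted p = 0.00675) for Arg1. None of the 10 genes passed (0.0302% of all genes did), and 2, Arg1 and Il4ra, had an unadjusted p under 0.05, as did 6.01% of genes.

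Il4ra, the receptor chain itself, held 303, 333 and 139 CPM in KO R300, against 195, 176 and 120 CPM in KO blank. With R300, WT libraries held 290, 136 and 381 CPM, against 201, 149 and 111 CPM in blank cells. As for Arg1, R300 exceeded blank within each Xist state, while groups overlapped when all libraries were pooled. The averaged change was 1.66-fold (log2 0.73, SE 0.29, adjusted p = 0.234). Of its exonic bases 9.51% overlap Gm44876 on the other strand, a gene with at most 0.151 CPM in any library.

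Socs2 encodes a suppressor of cytokine signalling that STAT5 and STAT6 can induce. Its levels were 23.9, 23.7 and 4.51 CPM in KO R300, against 13.4, 6.19 and 4.40 CPM in KO blank cells. The WT libraries had 16.8, 6.09 and 20.7 CPM with R300, against 9.69, 5.78 and 2.85 CPM without. Each group had its lowest level in the library without Xist. Its averaged change was 2.28-fold (log2 1.19, SE 0.48, adjusted p = 0.259). Between libraries without Xist the R300 to blank ratio, from log2(CPM + 0.5), was 1.02 in KO and 1.97 in WT.

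Pdcd1lg2 encodes PD-L2, a ligand of the T cell receptor PD-1. It held 3.31, 3.43 and 1.37 CPM in KO R300, against 1.76, 2.13 and 1.17 CPM in KO blank. In WT it held 2.40, 1.59 and 2.63 CPM with R300, against 1.17, 1.56 and 1.08 CPM in blank cells. The WT groups did not overlap, by a margin of 1.59 to 1.56 CPM, and the averaged change was 1.66-fold (log2 0.73, SE 0.27, adjusted p = 0.198; exact permutation p = 0.04, unadjusted). These values rest on 27 to 97 counts per library.

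The Xist state of a library moved with these genes, and a term for it in the fit changed the calls. In the 4 libraries without Xist, Arg1 held 123 to 275 CPM, against 329 to 2211 CPM in the 8 with Xist. Il4ra held 111 to 139 CPM without Xist and 149 to 381 CPM with it. With the term, 6 of the 10 genes rose in the average of both genotypes, where 5.05% of all tested genes did. Besides Tgm2 (log2 1.22, SE 0.08) and Klf4 (log2 1.11, SE 0.19, adjusted p = 0.00497), these were Arg1 at 2.19-fold (log2 1.13, SE 0.23, adjusted p = 0.0125), Il4ra at 1.58-fold (adjusted p = 0.00982), Socs2 at 2.10-fold (adjusted p = 0.0179) and Pdcd1lg2 at 1.62-fold (adjusted p = 0.0270). In the single genotypes with the term, Tgm2 rose in KO (1 of 10, against 2.04% of genes), and Tgm2 and Klf4 rose in WT (2 of 10, against 1.66%). In the 8 libraries with Xist alone, 4 of 10 rose in the average, against 3.3% of genes: Tgm2, Arg1 (2.83-fold), Il4ra (1.82-fold) and Socs2 (2.44-fold). What the Xist state stands for was not tested, and the R300 libraries with Xist of each genotype are the near-alike pair. The spread between R300 libraries, and with it the adjusted p, may therefore be too small in both of these fits.

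**Figure D3:**
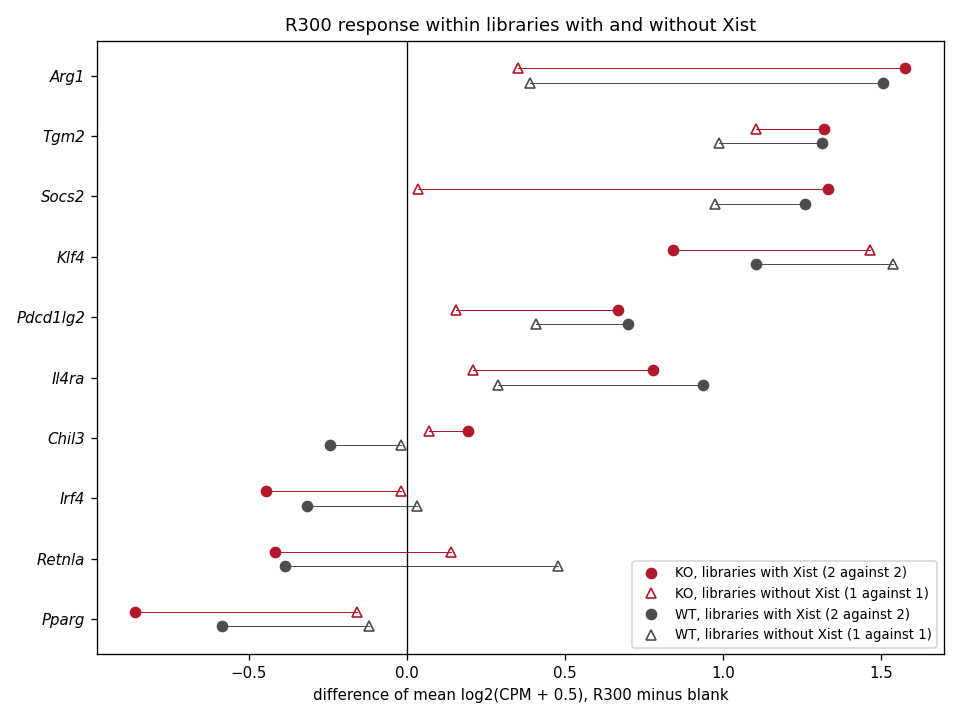
Difference of mean log2(CPM + 0.5), R300 minus blank, within libraries with Xist (filled circles, 2 against 2) and without (open triangles, 1 against 1) in KO and WT. Arg1, Tgm2, Socs2, Klf4, Pdcd1lg2 and Il4ra lie right of 0 in both states and genotypes; Arg1 is near 1.5 with Xist and below 0.4 without, and Klf4 is larger without.

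Pparg, the gene of a fatty acid sensing nuclear receptor, ran opposite to Arg1. It held 17.1, 15.5 and 45.0 CPM in KO R300, against 20.7, 43.2 and 50.2 CPM in KO blank. In WT it held 21.0, 51.6 and 20.7 CPM with R300, against 30.3, 32.6 and 56.1 CPM in blank cells. The 4 libraries without Xist were the highest of all 12, at 45.0 to 56.1 CPM. Its averaged log2 change with R300 was -0.45 (SE 0.36, adjusted p = 0.603), and -0.57 (SE 0.18, adjusted p = 0.0781) with the Xist term. Across the 12 libraries its log2 level had a Pearson r of -0.95 with Arg1, -0.96 with Socs2 and -0.91 with Il4ra. These correlations are descriptions only, since the libraries share treatment, Xist state and near-alike pairs.

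Retnla, Chil3 and Irf4, long-known members of the IL-4 program, did not pass in any comparison or alternative run. Retnla, a secreted resistin-like protein in mice, held 37.2, 33.0 and 18.1 CPM in KO R300, against 25.7, 85.4 and 16.4 CPM in KO blank. In WT it held 49.4, 21.7 and 44.6 CPM with R300, against 40.5, 92.8 and 15.4 CPM in blank cells. The blank libraries numbered 2 were highest in both genotypes. Its averaged log2 change was -0.45 (SE 0.48, adjusted p = 0.727). Among the libraries without Xist the difference had the other sign, at 0.14 in KO and 0.48 in WT, against -0.42 and -0.38 among those with Xist. Retnla carries the STAT6 form printed above, as does Pdcd1lg2, whose level was higher with R300 in both Xist states.

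Irf4, a transcription factor of macrophages, dendritic cells and B cells, held 15.5, 15.2 and 7.60 CPM in KO R300, against 19.1, 23.2 and 7.70 CPM in KO blank. In WT it held 14.0, 6.30 and 12.3 CPM with R300, against 13.7, 19.8 and 6.15 CPM in blank cells. It too was highest in the blank libraries numbered 2 and lowest in the libraries without Xist, and its averaged log2 change was -0.33 (SE 0.35, adjusted p = 0.720). Markers of B cells, of T and NK cells and of neutrophils were also highest in the blank libraries numbered 2. The sum of 10 B cell markers, all detected, was 158 CPM in KO blank 2 and 176 CPM in WT blank 2, against 52.4 to 93.4 CPM in the other 10. The sum of 12 T and NK cell markers was 19.5 and 21.0 CPM in these libraries, against 5.02 to 11.1 CPM in the others. For 11 neutrophil markers it was 230 and 231 CPM, against 131 to 184 CPM in the others. Genes of classical activation, 24 in number, also had their highest sums there, at 4699 and 3674 CPM against 1602 to 3080 CPM. The sum of 11 dendritic cell markers was highest in KO blank 2 at 196 CPM, but in WT blank 2 it was 126 CPM, within the 83.3 to 170 CPM of the other libraries. The part of these cells in the levels of Retnla and Irf4 was not tested, and in bulk RNA fewer cells of a type and less RNA per cell cannot be told apart.

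Chil3, the gene of the lectin Ym1, varied least among the 10. It held 159, 152 and 121 CPM in KO R300, against 147, 125 and 115 CPM in KO blank. WT macrophages held 116, 117 and 116 CPM with R300, against 109, 174 and 119 CPM in blank cells. The averaged log2 change was -0.02 (SE 0.12, adjusted p = 0.962). Its near relative Chil4 had at most 1 count in any library. How reads that fit both genes were counted was not checked. Of the relatives of Retnla, Retnlb had no counts and Retnlg was at no more than 11.6 CPM, and Arg2, the relative of Arg1, was at 7.01 to 24.5 CPM.

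**Figure D4:**
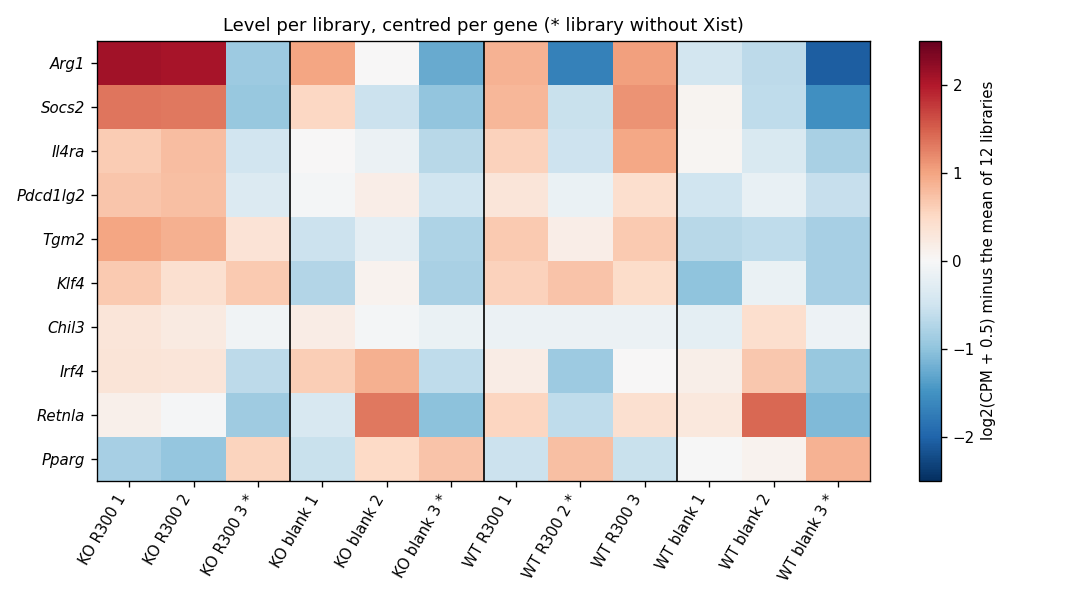
Level per library as log2(CPM + 0.5) minus the gene's mean over 12 libraries, with groups from left to right KO R300, KO blank, WT R300 and WT blank and asterisks on libraries without Xist. Arg1, Socs2, Il4ra and Pdcd1lg2 are high in the R300 libraries with Xist, Pparg is high in the libraries without Xist, and Irf4 and Retnla are highest in KO blank 2 and WT blank 2.

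Over the 10 genes, libraries without Xist lay wholly below those with Xist for 4 (Arg1, Retnla, Il4ra and Irf4), against 5.44% of all tested genes. They lay wholly above for 1 (Pparg), against 7.55% of genes. Thus 5 of the 10 genes divided the libraries by Xist state, against 13% of genes, and 2 of the 10 divided R300 from blank in both genotypes, against 3.35% of genes.

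Genotype was compared next, which asks whether the program differed between libraries labelled KO and WT, the deletion of Ern1 itself being unchecked here. None of the 10 genes passed with edgeR between KO and WT in blank cells (0% of all genes did), in R300 cells (0%) or in the average, and none had an unadjusted p under 0.05. In blank cells no member separated KO from WT without overlap, where 3.7% of all genes did. For the R300 response itself, the difference of log2 changes, KO minus WT, ran from -0.21 (Klf4, SE 0.36) to 0.36 (Chil3, SE 0.24), with none called. With edgeR, 0 of all tested genes passed in blank cells (181 at an unadjusted p under 0.05; 2 with DESeq2), in R300 cells (324; 12 with DESeq2) and for the difference of responses (95; 0 with DESeq2). In the average of both treatments 1 gene passed (0.00604% of those tested), which was Lyz2. With DESeq2 none of the 10 passed in these comparisons. Blank libraries of equal number deviated together, so they were also compared as pairs. Within these pairs the log2 differences of the 10 genes, KO minus WT, ran from -0.65 (Retnla, number 1) to 1.45 (Arg1, number 1). A fit of the blank groups with the replicate number as a block called no gene, with Arg1 at log2 0.97 (SE 0.17, adjusted p = 0.989).

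Arg1 had the largest difference in mean level between genotypes among the 10. It was at 1549 ± 1103 CPM in KO R300 against 722 ± 488 CPM in WT R300, and at 589 ± 411 CPM in KO blank against 276 ± 135 CPM in WT blank (SD, n = 3). The averaged ratio was 2.14-fold (log2 1.10, SE 0.60, adjusted p = 1.00; exact permutation of genotype within treatment p = 0.205, unadjusted). The difference was positive in each Xist state, at log2 1.13 (R300) and 1.06 (blank) with Xist and 0.77 and 0.81 without. With the Xist term it was 2.03-fold (log2 1.02, SE 0.22, adjusted p = 0.140). Markers of resident peritoneal macrophages, all 13 detected, are given beside Arg1. Their summed level was 1678, 1637 and 1028 CPM in KO R300, against 1192, 1293 and 1161 CPM in WT R300. Among libraries without Xist the sum was lower in KO, while Arg1 was higher there. Cd9 and F10, with means of 547 and 445 CPM over the 12 libraries, made up most of this sum. Single markers went both ways. Prg4 was at 245, 269 and 29.3 CPM in KO R300, against 71.8, 13.3 and 65.7 CPM in WT R300, and so was higher in KO in both Xist states. Timd4 was at 5.53 CPM in KO R300 3, against 21.1 CPM in WT R300 2. Of the 13 markers 12 had a positive averaged log2 difference, without any passing. For KO blank the sums were 1438, 1505 and 950 CPM, against 1102, 1042 and 1265 CPM for WT blank. Their part in the Arg1 difference was not tested.

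Chil3 was the gene whose R300 libraries did not overlap between genotypes, at 159, 152 and 121 CPM in KO R300 against 116, 117 and 116 CPM in WT R300, where 4.03% of all genes lay wholly higher in KO. The difference was 1.24-fold (log2 0.31, SE 0.17, adjusted p = 1.00), and in blank cells the groups overlapped. Chil3 is also counted among 10 monocyte markers, of which 9, Chil3 itself included, had a positive log2 difference in R300 cells, without any passing. Their sum, to which Chil3 contributes, was 789, 734 and 438 CPM in KO R300, against 456, 410 and 462 CPM in WT R300, so these groups overlapped. The part of such cells in the Chil3 level was not tested.

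Genes that carry the IL-4 signal were then examined, from the ligands to the transcription factor. None of 16 tested genes of this list passed in KO, WT or the average with edgeR; 2, 2 and 5 had an unadjusted p under 0.05, as did 8.78%, 8.72% and 15.6% of all tested genes. The list's median log2 change was -0.15, -0.14 and -0.13. Stat6 held 237, 223 and 252 CPM in KO R300, against 245 to 262 CPM in KO blank, with an averaged log2 change of -0.12 (SE 0.07, adjusted p = 0.422). The receptor chains Il2rg and Il13ra1 averaged log2 changes of 0.02 and -0.15. Il4 itself was at 1.09 to 2.58 CPM in every library, and Il13 at 0 to 0.207 CPM. In KO, Il4 was at 2.38, 2.58 and 1.88 CPM with R300, against 1.53, 1.5 and 1.09 CPM in blank cells (log2 0.73, SE 0.24, adjusted p = 0.282). In WT it was at 1.5, 1.18 and 1.15 CPM with R300, against 1.56, 1.41 and 1.45 CPM in blank cells (log2 -0.20, SE 0.24, adjusted p = 0.910). Markers of mast cells, basophils and eosinophils, among which Il4 is counted, summed to 119, 81.9 and 54.8 CPM in KO R300, against 45.4, 81.2 and 37.3 CPM in KO blank. In WT they summed to 54.3, 54.7 and 62.9 CPM with R300, against 21.4, 51.4 and 28.5 CPM in blank cells, and their part in the Il4 level was not tested. Cish, a STAT5-induced inhibitor of cytokine signalling, had the lowest p of the list at 4.85-fold in the average (log2 2.28, SE 0.57, adjusted p = 0.0551). Its level was 32.6, 31.6 and 6.96 CPM in KO R300, against 7.39, 5.73 and 0.819 CPM in KO blank, so R300 and blank overlapped there. In WT the groups did not overlap, at 22.7, 9.24 and 24 CPM with R300 against 6.36, 4.43 and 1.41 CPM in blank cells. Ptpn6, the gene of the phosphatase SHP-1, came next at 0.740 of the blank level (log2 -0.43, SE 0.12, adjusted p = 0.0839). With the Xist term 4 of 16 passed, 2 higher (Cish and Socs3) and 2 lower (Tyk2 and Ptpn6), where 9.02% of all genes passed in either direction.

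Other genes linked to alternative activation moved in both directions. Of 37 tested, 2 rose in KO and in WT, Vegfa and Clec7a, where 0.695% and 0.55% of all genes did. In the average of both genotypes 2 of 37 rose and 2 fell, where 2.43% and 1.21% of all tested genes did. An unadjusted p under 0.05 was held by 10 of the 37, against 15.6% of all tested genes. In this average Vegfa, an angiogenic factor, rose 10.1-fold (log2 3.33, SE 0.23). Clec7a, whose product Dectin-1 binds beta-glucans, rose 2.27-fold (log2 1.18, SE 0.14). In the same comparison Tfec, a transcription factor of the MiT family, fell to 0.533 (log2 -0.91, SE 0.14), and Nupr1, a stress-induced chromatin protein, fell to 0.498 of the blank level (log2 -1.01, SE 0.24). The mannose receptor gene Mrc1, a standard marker, had an averaged log2 change of -0.17 (SE 0.24, adjusted p = 0.804). With the Xist term 2 rose and 2 fell in each genotype (the same 4 genes), where 2.72% of all genes in KO and 2.1% in WT passed in either direction. In the average with this term 4 rose and 3 fell, where 5.05% of all tested genes rose and 9.02% passed in either direction. The median of the list was -0.11, with 14 of 37 values positive.

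Genes of classical activation also moved in both directions. Of 23 tested, none passed in KO or WT with edgeR, where 9 each had an unadjusted p under 0.05, against 8.78% and 8.72% of all genes. In the average 2 rose and 2 fell, where 2.43% and 1.21% of all tested genes did. An unadjusted p under 0.05 was held by 12 of the 23 in the average, against 15.6% of all tested genes. The costimulatory ligands Cd80 and Cd86 rose 4.49-fold (log2 2.17, SE 0.35) and 1.92-fold (log2 0.94, SE 0.16). The cytokine gene Tnf fell to 0.311 (log2 -1.69, SE 0.33), and the interferon-linked factor Irf1 fell to 0.441 of the blank level (log2 -1.18, SE 0.23). With the Xist term 4 of 23 rose in KO (Il1b, Il6, Cd80 and Cd86), and these with Ptgs2 made 5 in WT, while none fell. Of all tested genes 2.04% rose in KO and 1.66% in WT in that fit. In the average with that term 7 rose and 4 fell, where 5.05% of all tested genes rose and 9.02% passed in either direction. The summed level of the 10 members, most of it Arg1 and Tgm2, was 4515, 4353 and 1787 CPM in KO R300 against 2064, 1777 and 1059 CPM in KO blank, with overlap. In WT the sum was 2873, 1576 and 3065 CPM with R300, against 1330, 1417 and 947 CPM in blank cells, without overlap.

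**Figure D5:**
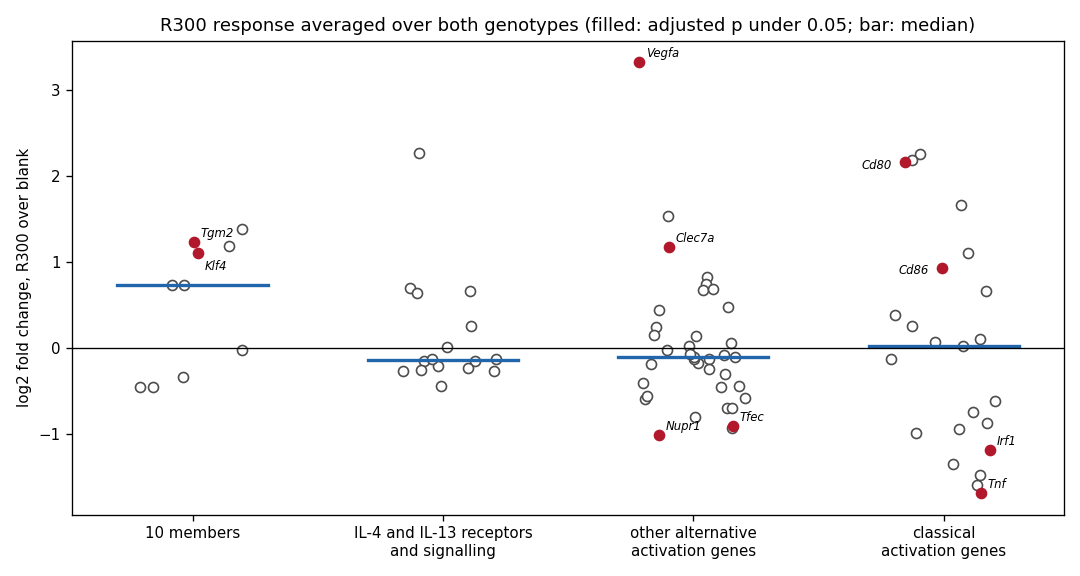
Averaged log2 fold change of R300 over blank for the 10 genes, 16 IL-4 and IL-13 signalling genes, 37 other alternative activation genes and 23 classical activation genes; filled points passed an adjusted p under 0.05 and bars are medians. The medians are 0.73, -0.13, -0.11 and 0.03, and points lie on both sides of 0 in every list.

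The genes most alike to each member were found over all 12 libraries, as Pearson r of log2(CPM + 0.5) against 11862 genes. They are descriptions of shared variation, including that between libraries with and without Xist. Tgm2 ran closest to Nudt4 (r = 0.988), Lmnb1 (0.984) and Impdh1 (0.983). Klf4 ran closest to Snx18 (0.976), Ndel1 (0.972) and Ankrd33b (0.970). Arg1 ran closest to Car6 (0.996), Galnt3 (0.990) and Cystm1 (0.989), and Pparg to Blnk (0.994), Mical1 (0.994) and Arhgap22 (0.991). Il4ra ran closest to Mtf1 (0.983), Socs2 to Fzd1 (0.976) and Pdcd1lg2 to Stat3 (0.977). Retnla ran closest to Ifitm3 (0.983), Irf4 to Klra2 (0.981) and Chil3 to Cbfb (0.947). Among the 10 themselves, Il4ra and Socs2 (r = 0.962), Arg1 and Socs2 (0.942) and Arg1 and Il4ra (0.906) were the most alike, Tgm2 and Klf4 had r = 0.876, and Retnla and Irf4 had 0.829.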

How the data were processed

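The authors deposited raw counts per gene symbol for 12 libraries. Per the submitters' processing notes, the genome was mm10, and the tools named, with no role or order given, include HISAT2 (as version 2), fastp 0.23.4, FastQC 0.12.1, DESeq2 1.42.0 and featureCounts 2.0.3. Library making used oligo(dT) selection and a NEBNext Ultra kit, per the labels' protocols. Whether strand was used in counting is not given in the sources used here. Rows without a symbol (102, at most 0.0328% of a library) were left out.

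Counts were tested with edgeR 4.0.16 in R 4.3.3 (TMM, filterByExpr, robust quasi-likelihood fit, 1 mean per group, all 12 libraries). Genes with a Benjamini-Hochberg adjusted p under 0.05 over all 16546 tested genes were called. SE is that of the fit. Exact permutation tests used log2(CPM + 0.5) and are unadjusted over 10 genes. Exon lengths and positions come from GENCODE M21 (GRCm38, which mm10 names). The fit was tested on simulated data. Alternatives were DESeq2 1.42.0, other scalings, no filter, a replicate block, fits of only the groups compared, a term for libraries without Xist, summed near-alike pairs and each library left out. The fit on the 8 libraries with Xist, the block within the blank groups and the term for Xist state by treatment were added after seeing the data. The libraries without Xist and the near-alike pairs were themselves defined from these counts, so the fits that use them depend on the data too. Deviations from the group means of equally numbered libraries correlated at 0.587 to 0.654 between KO blank and WT blank, so the data pair these; in the other pairs of groups at least 1 number was under 0.1 (range -0.717 to 0.671). The labels do not say what a number shares. A library was counted as without Xist at fewer than 10 Xist counts. All 10 members are named in every comparison, with called genes and those of lowest p from the other lists, some standard genes chosen after their values were seen (Stat6, Il2rg, Il13ra1, Mrc1, Il4, Il13), and the genes most alike by correlation among those with a mean count of at least 20. The members and lists were chosen with earlier results of these data known.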

Additional observations from a re-analysis of the deposited data

How the results depend on the processing

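The Tgm2 call averaged over both genotypes held under every alternative run, with adjusted p up to 0.0156, and that of Klf4 under 18 of 20. Members called in KO with R300 numbered 1 in the fit reported and 2 with DESeq2 (Tgm2 and Klf4), 0 with only the groups compared, 0 with near-alike pairs summed, and 0 to 2 without single libraries. In WT they numbered 1 in the fit reported and 2 with DESeq2, the Xist term or the replicate block, 0 with only the groups compared or near-alike pairs summed, and 0 to 2 without single libraries. In the average they numbered 2, against 6 with the Xist term, 4 in the 8 libraries with Xist and 1 with pairs summed. No member passed between genotypes or for the difference of responses under any alternative. Of 1450 alternative values of the 10 genes, 89 had another sign, and none of these passed in either fit.

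All called genes in KO with R300 numbered 138, against 416 with DESeq2, 43 with only the groups compared, 450 with the Xist term, 35 with pairs summed, 290 in libraries with Xist and 45 to 171 without single libraries. In WT they numbered 103, against 332, 41, 347, 27, 242 and 32 to 135 in the same order. In the average they numbered 603, against 1148 with DESeq2, 1492 with the Xist term, 158 with pairs summed, 1004 in libraries with Xist and 308 to 852 without single libraries. Between genotypes in blank cells there were 2 with DESeq2, 1 without the filter and 1 with the Xist term, against 0. In R300 cells there were 12 with DESeq2 and 1 without the filter, against 0. In the average there were 48 with DESeq2, 28 with the Xist term, 0 with pairs summed or in libraries with Xist, and 1 to 10 without single libraries, against 1. The cause of these changes was not tested. The replicate block changed no call of a member other than that of Klf4 in WT. Pdcd1lg2, at 27 to 97 counts, is the member whose depth limits the values most.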
